A study of Homo sapiens with 6 samples.

Results

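The genes described here are 10 that mark or build the osteoblast, the bone-forming cell, measured in U-2 OS osteosarcoma cells after depletion of the RNA-binding protein SFPQ. They are listed by name, with no threshold on a measured value: the regulators RUNX2, SP7, DLX5 and MSX2, the enzymes ALPL and PHEX, and the bone matrix proteins SPP1, IBSP, BGLAP and SPARC. Each symbol was matched to 1 Ensembl identifier of the deposited table, which gives 10 genes of 60664. U-2 OS is an established human cell line grown from an osteosarcoma, a bone tumour whose cells belong to the osteoblast lineage, and the labels give its genotype as polyploid. In the siCTRL group the cells received a control siRNA, and in the siSFPQ group an siRNA against SFPQ, which was transfected at 30 nM. Each group had 3 libraries of polyA RNA, and no time after transfection is given in the labels. All libraries come from the same cell line, so the p-values below measure the spread between these libraries only.

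Osteoblasts arise from mesenchymal progenitors under the control of RUNX2, the lineage's master transcription factor, with SP7 (Osterix) acting downstream of it and the homeodomain proteins DLX5 and MSX2 tuning both. Maturing cells lay down collagen and SPARC (osteonectin), raise the alkaline phosphatase ALPL, and then deposit osteopontin (SPP1), bone sialoprotein (IBSP) and, last, osteocalcin (BGLAP), while PHEX, a membrane endopeptidase, appears as cells become embedded in mineral and turn into osteocytes. SFPQ is a nuclear protein of paraspeckles that acts in transcription, splicing and the elongation of long genes.

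SFPQ itself had between 21753 and 23139 counts per siCTRL library and between 3140 and 3863 per siSFPQ library, which is a log2 difference of -2.73 (SE 0.050, adjusted p = 6.33e-30). Total counts ranged from 46142855 to 47119203 in siCTRL and from 43469321 to 45543610 in siSFPQ. A floor of 3 counts per library stands for 0.0637 to 0.0690 CPM (a gene's counts scaled by the library total), and it covers counting error only. Of 29022 genes tested with edgeR's quasi-likelihood test, those with an adjusted p under 0.05 were called, and 22.4% of the genes tested were called higher and 22.1% lower in siSFPQ. These shares are the background for every count below.

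The regions just before the start sites of 4 genes are shown first: SPP1, BGLAP and MSX2, which differed between the groups, and RUNX2, whose protein binds such regions in other genes of the lineage. RefSeq (GRCh38.p14) gave promoter windows for 7 of the 10 genes (all but SP7, DLX5 and PHEX), and the 250 bases before each start site were searched on both strands for TGTGGT (the core that RUNX proteins recognise), TAATTA (which many homeodomain proteins bind), GGGCGG (known as the GC box), TATAAA (known as the TATA box) and TAATTG (which homeodomain proteins also bind). The printed stretches end at the start site or, for SPP1 and RUNX2, before the first exon base that GENCODE annotates for the gene. They are chr4:87975464-87975666 for SPP1, chr1:156241934-156242183 for BGLAP, chr5:174724332-174724581 for MSX2 and chr6:45328080-45328156 for RUNX2, all on the plus strand and written 5′ to 3′. Capitals mark the matches, and a RUNX core on the minus strand reads ACCACA here.
SPP1: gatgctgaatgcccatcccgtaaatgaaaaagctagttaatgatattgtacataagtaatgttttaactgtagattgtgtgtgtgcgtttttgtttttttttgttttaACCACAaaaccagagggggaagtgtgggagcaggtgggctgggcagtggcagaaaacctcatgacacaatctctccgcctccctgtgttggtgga
BGLAP: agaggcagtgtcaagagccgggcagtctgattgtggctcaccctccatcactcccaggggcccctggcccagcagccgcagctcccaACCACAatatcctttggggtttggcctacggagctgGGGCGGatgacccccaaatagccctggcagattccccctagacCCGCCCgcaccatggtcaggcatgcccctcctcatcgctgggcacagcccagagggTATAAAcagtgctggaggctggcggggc
MSX2: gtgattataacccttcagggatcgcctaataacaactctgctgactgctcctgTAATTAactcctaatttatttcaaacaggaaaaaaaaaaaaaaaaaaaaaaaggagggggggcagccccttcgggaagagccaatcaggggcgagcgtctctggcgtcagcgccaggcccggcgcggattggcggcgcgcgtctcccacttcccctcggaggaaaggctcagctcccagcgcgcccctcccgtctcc
RUNX2: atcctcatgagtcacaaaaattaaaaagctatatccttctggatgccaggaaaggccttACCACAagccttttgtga

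A RUNX core lay 142 bases before the SPP1 start site, 163 bases before that of BGLAP, and 191 and 87 bases before the upstream start site of RUNX2, the last of these beyond the stretch shown. BGLAP also held a GC box at 127 and another at 84 bases and a TATA box at 28 bases before its start. MSX2 held a homeodomain site at 197 bases, and IBSP held one at 201 bases with a TATA box at 30 bases. Of the 3 windows of ALPL, 1 held 4 GC boxes and a TATA box, the downstream window of RUNX2 held a GC box at 219 bases, and the SPARC window held none of these letters. Among all 35116 windows, 3855 (11.0%) held the RUNX core, 4.35% held TAATTA, 6.70% TAATTG, 42.6% the GC box and 10.7% the TATA box. No matches overlapped in these windows. The matches describe letters only, and binding was not measured. Of the genes with a RUNX core here, SPP1 was lower, BGLAP was higher on 18 counts in total, and RUNX2 was not called, as given below. Whether the core bears on these values was not tested.

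Among the 4 regulators, MSX2 rose, RUNX2 and DLX5 did not pass the test and SP7 was almost unread. RUNX2 (ENSG00000124813, chr6:45328157-45664349) had 2541, 2677 and 2681 counts in siCTRL replicates 1, 2 and 3 and 2690, 2872 and 2699 in siSFPQ replicates 1, 2 and 3. After scaling to a common library size its normalized count was 2637 ± 79.1 in siCTRL and 2749 ± 77.3 in siSFPQ (SD, n = 3). The groups overlapped, since siSFPQ replicate 3 lay below siCTRL replicates 2 and 3 once scaled. The log2 fold change was 0.06 (SE 0.044, 95% interval -0.03 to 0.15, adjusted p = 0.295), so that a RUNX2 rise above 0.15 or a fall below -0.03 lay outside the interval. With library size alone in place of TMM scaling, it was 0.12 with an adjusted p of 0.0187. In bulk RNA, fewer cells of a type and less RNA per cell cannot be told apart, here or in any value below.

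MSX2 (ENSG00000120149, chr5:174724582-174730896), a homeodomain repressor induced by BMP signals in skeletal and craniofacial progenitors, had 317, 330 and 328 counts in siCTRL and 845, 710 and 788 in siSFPQ. All siSFPQ libraries lay far above all siCTRL libraries, and the spread was wider in siSFPQ. Normalized counts went from 325 ± 6.85 to 781 ± 88.4 (SD, n = 3), which is a 2.40-fold rise (log2 1.26, SE 0.087, 95% interval 1.08 to 1.44, adjusted p = 3.93e-14). The log2 fold change exceeded that of 89.6% of the genes tested.

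DLX5 (ENSG00000105880, chr7:97020396-97024950), an activator of RUNX2 and of SP7, had few reads, with 21, 4 and 9 counts in siCTRL and 26, 25 and 20 in siSFPQ. The siSFPQ libraries were close together, while siCTRL replicate 1 stood among them and so the groups overlapped. Its log2 fold change was 1.05 (SE 0.46, 95% interval 0.11 to 1.99, adjusted p = 0.0637), which did not pass. Without siCTRL replicate 1 it was 1.84 with an adjusted p of 0.00335, and without siCTRL replicate 2 it was 0.65 with an adjusted p of 0.251. With all libraries and the replicate number as a block it was 1.18 with an adjusted p of 0.0316.

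SP7 (ENSG00000170374, chr12:53326575-53345315), the zinc finger factor without which progenitors do not become osteoblasts, had 0, 1 and 1 counts in siCTRL and 1, 5 and 0 in siSFPQ. With 8 counts in total it was under the minimum of 10 and was not tested. The ratio of siSFPQ to siCTRL reads was 2.99, with a counting interval (95%, exact) from 0.535 to 30.3. Such an interval pools the reads of a group and covers counting error only. With no count filter its log2 fold change was 1.41 (95% interval -1.75 to 4.56, adjusted p = 0.529), so these reads bound a difference in SP7 only loosely. Per length (RPKM, defined with the levels below), RUNX2 was at 7.04 in siCTRL and SP7, the factor that acts after it, at 0.0043.

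**Figure D1:**
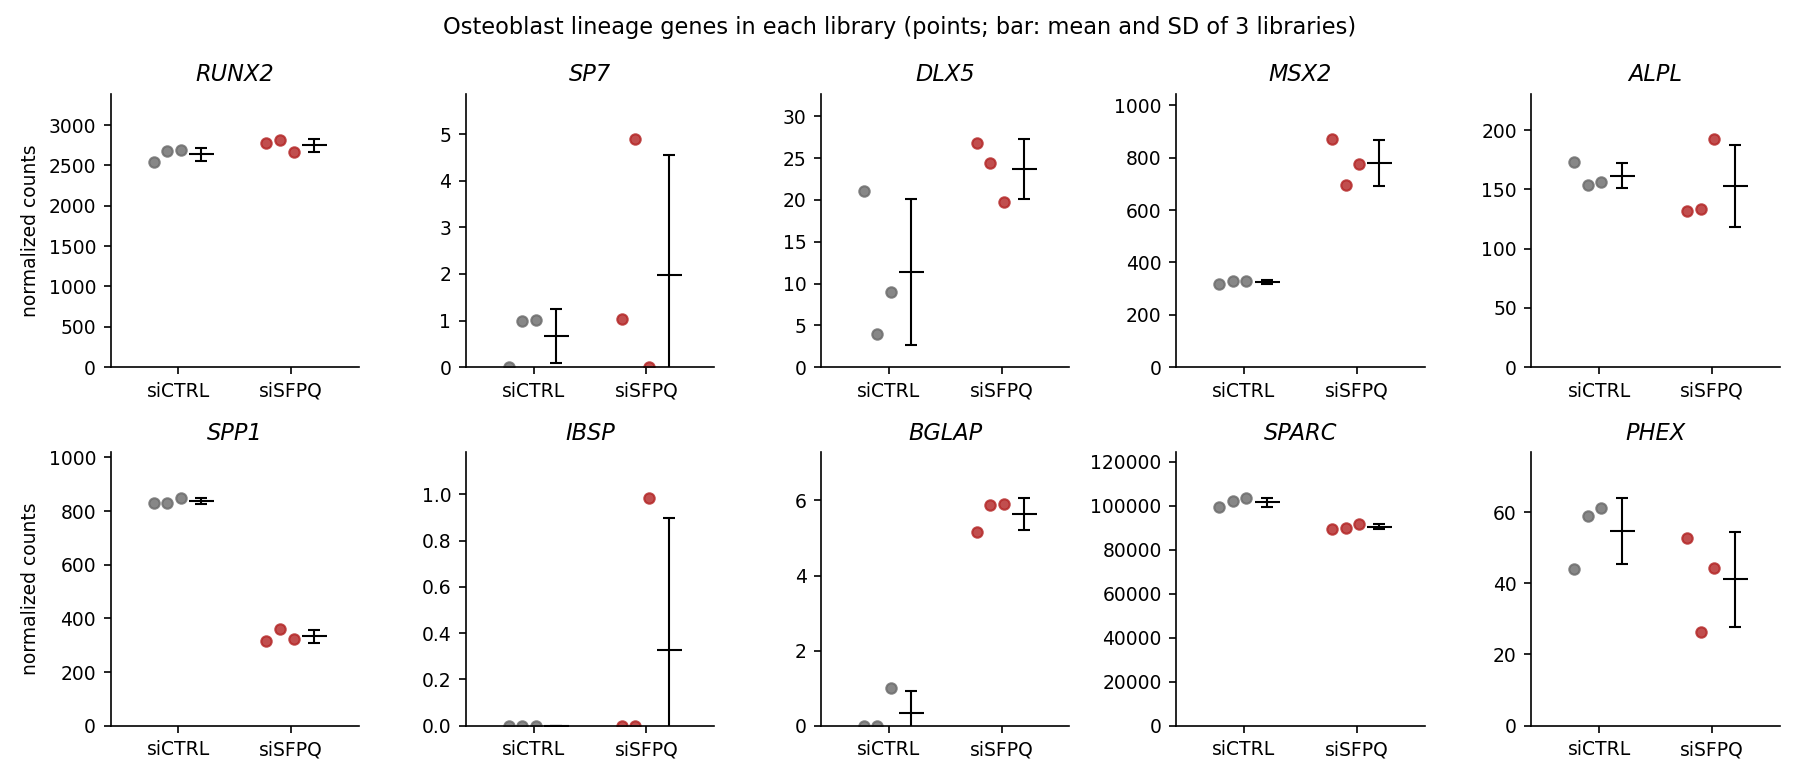
Normalized counts of each of the 10 genes in each library (points, siCTRL grey and siSFPQ red), with the mean and SD of the 3 libraries of a group beside them; each panel has its own axis from 0. MSX2 and BGLAP stand higher and SPP1 and SPARC lower in siSFPQ with no overlap, and RUNX2, DLX5, ALPL and PHEX overlap.

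Neither enzyme of mineralisation passed the test. ALPL (ENSG00000162551, chr1:21509397-21578410), the alkaline phosphatase that removes pyrophosphate and so lets mineral form, had 173, 154 and 156 counts in siCTRL and 128, 136 and 195 in siSFPQ. Its siSFPQ libraries spread on both sides of the siCTRL range, with replicate 3 the highest of the 6 libraries. Normalized counts were 161 ± 10.5 and 152 ± 34.5 (SD, n = 3), and the log2 fold change was -0.08 (SE 0.147, 95% interval -0.38 to 0.22, adjusted p = 0.712). The direction turned when siSFPQ replicate 1 was left out, at 0.03 (adjusted p = 0.926).

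PHEX (ENSG00000102174, chrX:22032325-22494713), whose loss causes X-linked hypophosphataemic rickets, had 44, 59 and 61 counts in siCTRL and 51, 27 and 45 in siSFPQ. The lowest value was siSFPQ replicate 2, and the other siSFPQ libraries lay within the siCTRL range. The log2 fold change was -0.41 (SE 0.259, 95% interval -0.94 to 0.11, adjusted p = 0.206). The interval for PHEX spans from a level near that of siCTRL to a fall of 0.94 on the log2 scale, so these data bound its change only loosely.

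The 4 matrix genes differed widely in level and direction. SPARC (ENSG00000113140, chr5:151661096-151686975), a collagen-binding glycoprotein of bone matrix, was the most abundant of the 10 genes, with 99135, 102144 and 103194 counts in siCTRL and 86929, 91876 and 93078 in siSFPQ. Every siSFPQ library lay below every siCTRL library, and the step was small beside the level. Normalized counts fell from 101646 ± 2117 to 90455 ± 1177 (SD, n = 3), to 89.0% of siCTRL (log2 -0.17, SE 0.033, 95% interval -0.24 to -0.10, adjusted p = 6.70e-05). With library size alone the log2 fold change was -0.10 and it was still called.

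SPP1 (ENSG00000118785, chr4:87975667-87983532), osteopontin, a phosphoprotein that binds mineral and integrins, had 828, 830 and 848 counts in siCTRL and 307, 367 and 327 in siSFPQ. The siCTRL libraries were nearly equal, and the siSFPQ libraries lay well below them. Normalized counts fell from 837 ± 11.8 to 333 ± 23.0 (SD, n = 3), to 39.8% of siCTRL (log2 -1.33, SE 0.080, 95% interval -1.49 to -1.17, adjusted p = 1.08e-15). Among genes tested, 7.81% had a lower log2 fold change than SPP1.

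BGLAP (ENSG00000242252, chr1:156242184-156243317), osteocalcin, the late marker of mature osteoblasts, rose from almost no counted reads. It had 0, 0 and 1 counts in siCTRL and 5, 6 and 6 in siSFPQ. All siSFPQ libraries lay above all siCTRL libraries, at a level that remained near the floor. The ratio of reads was 16.9, with a counting interval (95%, exact) from 2.65 to 708. The fitted log2 fold change, which depends on the prior count at this depth, was 3.65 (SE 1.28, 95% interval 1.04 to 6.27, adjusted p = 0.0199). With 1 count in siCTRL, BGLAP reached the minimum of 10 counts in total only through its siSFPQ reads. Without siCTRL replicate 2 the adjusted p was 0.0510, and the stricter filter of edgeR (filterByExpr) did not keep the gene. Of its 964 exon bases, 570 (59.1%) are not shared with the readthrough gene PMF1-BGLAP, which was listed at 0 in every library, and how reads on the shared exons were counted is not given in the sources used here.

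IBSP (ENSG00000029559, chr4:87799554-87812435), bone sialoprotein, which nucleates mineral, had 0 counts in every siCTRL library and 0, 0 and 1 in siSFPQ. Both groups lay under the floor, so no fold change is given, and with no count filter the adjusted p was 0.529. It lies on chromosome 4 in the cluster of related mineral-binding proteins that also holds SPP1. There MEPE, between IBSP and SPP1, had 3 counts in all 6 libraries together and DMP1 13.

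In all, of the 8 genes tested, 2 were higher (25% against 22.4% of all genes tested), 2 were lower (25% against 22.1%) and 4 were not called. Past a log2 fold change of 1.5 as well, which the study's methods require, there was 1 higher gene, BGLAP, beside 5.54% of all genes tested, and 0 lower genes beside 4.77%. The groups did not overlap in 4 of the 8 genes, against 52.3% of all genes tested. BGLAP, which reached the minimum count only through siSFPQ, is among these 4 and among the 2 higher genes. The median log2 fold change of the 8 was -0.01, and it was 0.02 over all genes tested. These shares are near the background.

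**Figure D2:**
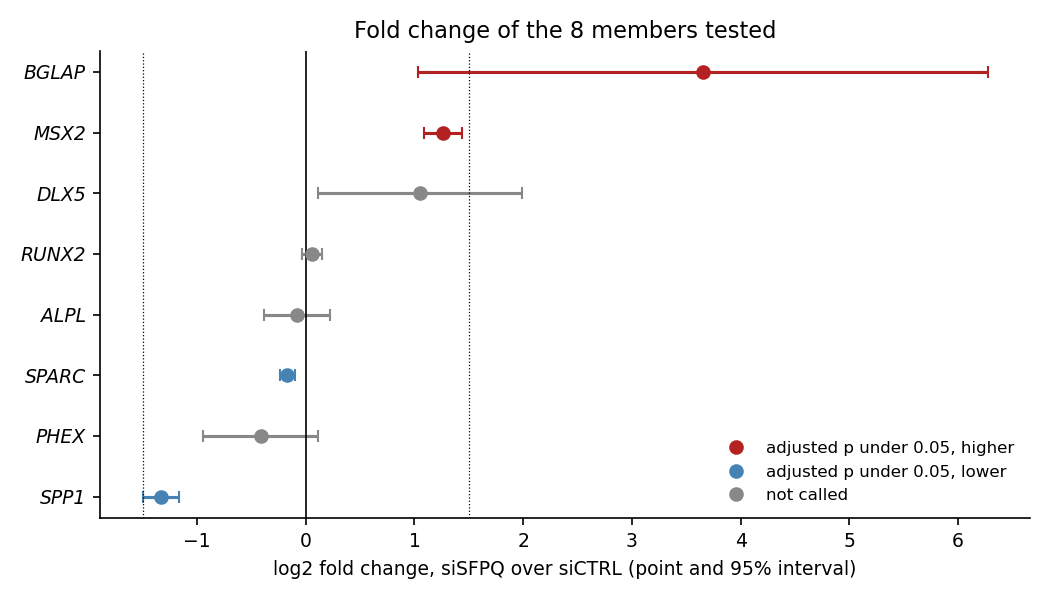
Log2 fold change (siSFPQ over siCTRL) of the 8 genes tested, with 95% intervals from edgeR's quasi-likelihood fit; dotted lines mark 1.5 in either direction. The intervals of MSX2 (1.08 to 1.44) and SPP1 (-1.49 to -1.17) lie on opposite sides of 0, that of RUNX2 spans -0.03 to 0.15, and that of BGLAP is the widest.

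Levels were compared between genes as reads per kilobase of merged exon and library size (RPKM), computed from the normalized counts. In siCTRL, SPARC was at 479 ± 9.98, a level that ranked 31 among 19942 coding genes. RUNX2 followed at 7.04 ± 0.211, MSX2 at 3.20 ± 0.067, SPP1 at 2.52 ± 0.036 and ALPL at 1.18 ± 0.077, and no neighbours in this part of the order overlapped in their libraries. DLX5 at 0.142 ± 0.110 and PHEX at 0.115 ± 0.020 overlapped, and BGLAP, SP7 and IBSP were at 0.008 or below, overlapping with each other. Of the markers that define the lineage, RUNX2, MSX2, SPP1, ALPL and SPARC were thus present in these cells. DLX5 and PHEX were low, and SP7, IBSP and BGLAP were at or near 0 in these counts. The BGLAP level is taken over all 964 exon bases, of which 570 are not shared with PMF1-BGLAP. If reads on the shared bases were left uncounted, its level is too low here, which was not tested.

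In siSFPQ the order of the middle of the range was different. MSX2, at 7.68 ± 0.869 RPKM, stood beside RUNX2, at 7.33 ± 0.206, and their libraries overlapped. SPP1, at 1.00 ± 0.069, stood beside ALPL, at 1.12 ± 0.253, again with overlap. The choice of length matters for these orders. On the length of the longest transcript, SPP1 was above MSX2 in siCTRL (4.50 against 3.24 RPKM). In siSFPQ, RUNX2 was then above MSX2 (10.2 against 7.78) and SPP1 above ALPL (1.79 against 1.31). The libraries did not overlap in any of these pairs.

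**Figure D3:**
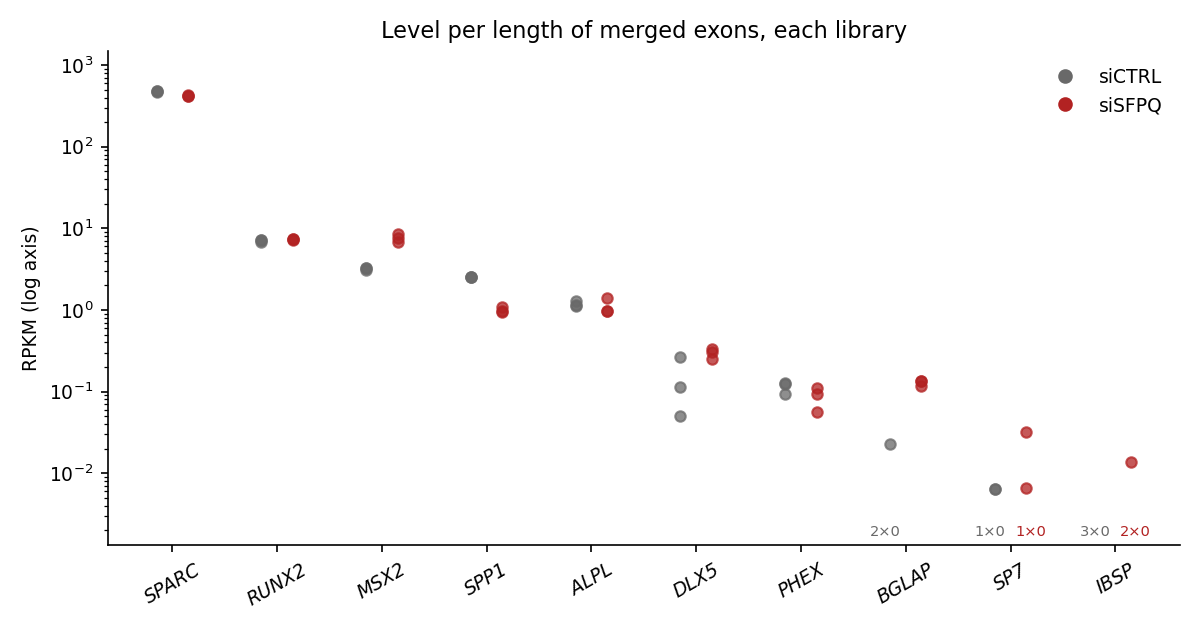
Level per length (RPKM of merged exons, log axis) of each gene in each library, siCTRL grey and siSFPQ red, ordered by the siCTRL mean; "2×0" and the like give the number of libraries at 0. SPARC lies near 479 and the other genes at or under 8.56. On this length, MSX2 reaches the level of RUNX2 in siSFPQ, and SPP1 comes down to that of ALPL.

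The genes also differ in how much genome they span. RUNX2 spans 336 kb and PHEX 462 kb, introns included, while MSX2, SPP1, DLX5 and BGLAP each span under 10 kb. Among 1115 coding genes over 200 kb with a mean of at least 1 CPM, 77.6% were lower and 10.9% higher in siSFPQ, and the median log2 fold change was -0.82. RUNX2, at 0.06, had a higher log2 fold change than 86.4% of that class, and PHEX, at -0.41, than 66.0% of it. In the class under 10 kb the median was 0.05, with the middle 50% of genes between -0.16 and 0.29. MSX2 was above 97.5% of that class and SPP1 had 1.05% of it below. RefSeq also gives RUNX2 a second start site inside the gene, and since the counts are per gene the start sites could not be told apart.

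BGLAP apart, few exon bases of these genes are shared with other genes. The library kit is stranded, but the strand setting of the counting is not given in the sources used here. RUNX2 shares no exon base with the 3 genes on its opposite strand, among them SUPT3H, which had at most 5 counts in any library. SPP1 shares 196 of its 7250 exon bases with an antisense lncRNA (ENSG00000286618) with at most 8 counts in a library, and SPARC shares 191 of 4638 with CLMAT3, with at most 23. Coding neighbours were read as well, and those named were chosen after their values were seen. PKD2, 24.1 kb after SPP1, was at -0.08 (adjusted p = 0.122). Beside BGLAP, PMF1, 2.14 kb before it, was lower (log2 -0.30) and PAQR6, 0.003 kb after it, higher (log2 0.25). Over all libraries PAQR6 had 6224 counts, PMF1 2451 and BGLAP 18. Whether any BGLAP reads stemmed from PAQR6 was not tested. DRD1, the next coding gene after MSX2 but 709 kb away, was lower at -1.63 (adjusted p = 2.68e-21). FAT2, 69.8 kb from SPARC and with 128 counts over all libraries, was lower (log2 -1.89). ATOX1, 55.3 kb away on the other side of SPARC, was higher (log2 0.15).

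The wider programme was read through 4 lists of genes that act with these 10. Of the 17 other osteogenic transcription regulators tested, out of 20, 3 were higher and 10 lower, and their median log2 fold change was -0.55. Under library size alone, 6 were higher. GLI2, the transcription factor of hedgehog signalling, fell most, from 5392, 5859 and 4811 counts to 341, 468 and 415 (log2 -3.72, SE 0.070, adjusted p = 1.58e-29). WWTR1 (TAZ), a coactivator of the Hippo pathway, fell by 1.03 on the log2 scale, and RUNX1 fell by 0.82, as did CBFB, the partner subunit of all RUNX proteins. CBFB is added to the named genes after its values were seen, since RUNX2 binds DNA with it. HEY1, a Notch and BMP target, rose from 102, 128 and 122 counts to 597, 571 and 624 (log2 2.34, SE 0.108, adjusted p = 7.28e-19). DLX3 rose from 20, 39 and 18 counts to 107, 126 and 99 (log2 2.10, SE 0.244), and RUNX3 rose by 0.78 (SE 0.081). TWIST1, DLX6 and FOXC2 had at most 3 counts in every library.

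Among the matrix and collagen-handling genes, 25 of 27 were tested, 6 were higher and 13 lower, and the median was -0.21. The fibril collagens COL5A1 and COL5A2 fell, COL5A1 from 30743, 33665 and 29760 counts to 5694, 6822 and 5789 (log2 -2.37, SE 0.048) and COL5A2 by 1.54 on the log2 scale. MGP, matrix Gla protein, an inhibitor of calcification related to osteocalcin, fell from 95, 78 and 81 counts to 6, 13 and 13 (log2 -2.98, SE 0.291, adjusted p = 1.70e-10). CTHRC1 rose by 1.01 (SE 0.148), CRTAP, a subunit of the collagen prolyl 3-hydroxylation complex, by 0.38, and the matrix glycoprotein tenascin-C (TNC) by 0.34. The chains of type I collagen, the main protein of bone, were far apart in level, at 323 ± 16.2 RPKM for COL1A1 and 0.077 ± 0.019 for COL1A2 in siCTRL, and they are added here after their values were seen. COL1A1 had between 128309 and 140758 counts in siCTRL and between 101230 and 107891 in siSFPQ (log2 -0.35, SE 0.035, adjusted p = 3.15e-10), while COL1A2 had between 31 and 49 and between 47 and 55, and was not called (log2 0.39, adjusted p = 0.231).

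Of 14 genes of mineralisation and the osteocyte, 11 were tested, 4 were higher and 6 lower, with a median of -0.26. PHOSPHO1, the phosphatase of matrix vesicles that starts mineral formation, rose from 59, 95 and 83 counts to 223, 244 and 225 (log2 1.54, SE 0.152, adjusted p = 2.20e-10). SMPD3, a sphingomyelinase needed for mineralisation, rose by 1.15 (SE 0.119) and CD44, a receptor for hyaluronan and osteopontin, by 0.43 (SE 0.044). The largest falls were those of ANKH, SLC20A2 and ENPP1. ANKH, which exports pyrophosphate, fell by 1.75 on the log2 scale, the phosphate transporter SLC20A2 by 1.61, and ENPP1, which makes pyrophosphate outside the cell, by 0.84. Each of these falls had an SE under 0.1. FGF23 and MEPE had at most 3 counts in every library.

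Of 28 signals and receptors of the osteoblast, 26 were tested, 5 were higher and 15 lower, with a median of -0.20. Receptors of bone morphogenetic proteins stood among the falls: BMPR2 went from 9324, 10098 and 9109 counts to 1434, 1680 and 1422 (log2 -2.66, SE 0.050, adjusted p = 1.61e-29), and BMPR1B fell by 2.11 on the log2 scale. CDH11, the osteoblast cadherin, fell by 2.14. The growth factor FGF18 rose from 39, 29 and 26 counts to 116, 115 and 110 (log2 1.85, SE 0.213), PTHLH (parathyroid hormone-related protein) rose by 0.76 and CSF1, which drives osteoclast formation, by 0.41. TNFSF11 (RANKL) and IGF1 had at most 3 counts in every library.

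The calls in these 4 lists were also counted by gene span. Of 79 genes tested in them, 18 were higher and 44 lower, beside 28.0% and 30.9% of 16477 coding genes tested. Among the 23 that span at least 100 kb, 1 was higher and 19 lower, with a median of -0.71, and among 3424 coding genes of that size 14.6% were higher and 56.5% lower, with a median of -0.35. Among the 56 shorter genes, 17 were higher and 25 lower, with a median of -0.08, beside 31.6% and 24.2% of 13053 coding genes and a median of 0.05. The part of span in these falls was not tested.

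Markers of the other lineages that arise from the same progenitor were also read. Of 13 cartilage markers tested, out of 14, 3 were higher (23.1%) and 5 lower (38.5%), with a median of -0.38. Of all genes tested, 22.4% were higher and 22.1% lower. HAPLN1, a link protein of cartilage matrix, fell from 33227, 34554 and 34498 counts to 8402, 10091 and 9139 (log2 -1.89, SE 0.041). Aggrecan (ACAN) fell by 1.51 and SOX5, a regulator of cartilage, by 1.47 on the log2 scale. SOX5 spans over 200 kb, a class in which 77.6% of coding genes with a mean of at least 1 CPM were lower and 10.9% higher. The 3 that rose were collagens of cartilage: COL11A2 by 0.74 and, from few reads and added after their values were seen, COL2A1 by 1.23 (SE 0.339) and COL10A1 by 2.07 (SE 0.349). The summed level of the cartilage list, most of it HAPLN1 in siCTRL, was between 1121 and 1146 CPM in siCTRL and between 478 and 528 in siSFPQ, and COMP had at most 3 counts in every library. For comparison, the summed level of the 10 osteoblast genes, most of it SPARC, was between 2233 and 2291 CPM in siCTRL and between 2093 and 2133 in siSFPQ.

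Of 8 adipocyte markers 6 were tested, 0 were higher and 2 lower (33.3%, beside 22.1% of all genes tested), with a median of -0.63. PPARG, the master regulator of fat cells, fell from 854, 805 and 839 counts to 299, 318 and 267. It spans between 100 and 200 kb, a class in which 54.8% of coding genes with a mean of at least 1 CPM were lower and 19.6% higher. LPL fell by 1.17 on the log2 scale, and ADIPOQ and LEP had at most 3 counts in every library. The summed level of this list was between 30.8 and 32.8 CPM in siCTRL and between 12.6 and 14.2 in siSFPQ. Skeletal muscle markers stayed low, between 3.08 and 5.46 CPM summed in siCTRL and between 4.28 and 4.86 in siSFPQ, with MYF5, MYF6 and MYOG at 3 counts or fewer throughout. Of 7, 3 were tested and 2 were higher (66.7%, beside 22.4% of all genes tested), with a median of 1.59. These are CKM and DES, both at few reads and named after their values were seen. CKM had 2 counts in siCTRL and 31 in siSFPQ (ratio 15.4, counting interval 3.93 to 133). Like BGLAP, CKM reached the minimum of 10 counts only through its siSFPQ reads, and it enters this share and this median. Under filterByExpr, 1 muscle marker was called higher. DES had 16, 7 and 5 counts in siCTRL and 31, 31 and 23 in siSFPQ.

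Of 9 markers of osteoclasts and blood cells 7 were tested, with a median of -0.13. Of these, 2 were higher (28.6%) and 1 lower (14.3%), beside 22.4% and 22.1% of all genes tested. CTSK, a collagen-degrading protease also made by mesenchymal cells, rose by 0.75 (SE 0.153). The other calls, ACP5 and PTPRC, are named after their values were seen. ACP5 rose by 0.75 (SE 0.267). PTPRC (CD45), which defines blood cells, had 26, 30 and 39 counts in siCTRL and 12, 14 and 5 in siSFPQ and was lower (log2 -1.61, SE 0.409). Their summed level lay between 14.6 and 15.8 CPM in siCTRL and between 16.0 and 17.0 in siSFPQ, and TNFRSF11A and OCSTAMP had at most 3 counts in every library. How far any of these markers bears on the values of the osteoblast genes was not tested.

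**Figure D4:**
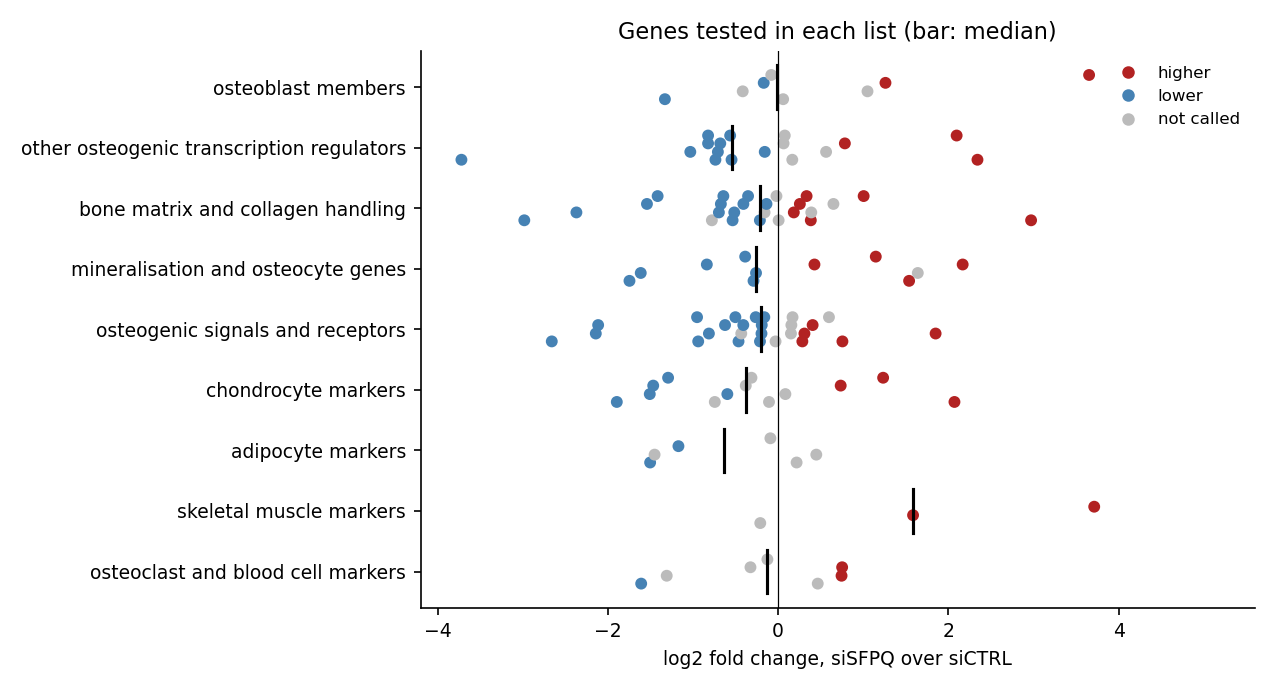
Log2 fold change (siSFPQ over siCTRL) of each gene tested in the osteoblast list and in the 8 other lists, red where called higher, blue where called lower and grey where not called; black bars give the medians. The osteoblast genes have a median of -0.01 with calls on both sides, and the 4 osteogenic lists have medians between -0.55 and -0.20.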

How the data were processed

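Per the methods and the submitters' processing notes, read quality was assessed with FastQC and alignment and gene counting used STAR 2.7.9a with the Ensembl GRCh38 annotation. The values deposited for the 6 libraries are raw counts per gene, without normalization; trimming and the strand setting of the counting are not given in the sources used here. All columns carried a sample's own name. Identifiers were matched to GENCODE release 44 (99.7%). Genes with at least 10 counts in total entered edgeR 4.0.16 (R 4.3.3; TMM scaling, quasi-likelihood fit, no covariates, two-sided), with Benjamini-Hochberg adjustment over 29022 genes. Normalized counts are counts divided by effective library size, scaled to the geometric mean library. Low counts were compared as ratios of reads pooled within a group, with exact binomial intervals (95%) that leave out the spread between libraries. Alternatives were filterByExpr, no filter, RLE factors, library size alone, DESeq2 1.42.0, the replicate number as a block, and each library left out. The test was tested on simulated counts. Libraries of a group differed by more than sampling noise, so none was the same library sequenced again. Separate preparations of the same RNA cannot be told apart in this way. The 10 genes and the 8 context lists were chosen with earlier results of these data known.

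Named genes are the 10, SFPQ, overlapping genes and, in each list, up to 3 of the largest rises and 3 of the largest falls among called genes whose groups do not overlap and whose mean CPM reaches 1, with markers near 0 counts; others are said to be added. Protein sequences were not used here.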

Additional observations from a re-analysis of the deposited data

How the results depend on the processing

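MSX2, SPP1 and SPARC kept their direction and call in all 12 alternatives, MSX2 between 1.19 and 1.32, SPP1 between -1.40 and -1.27 and SPARC between -0.18 and -0.10 (log2). BGLAP ranged from 3.21 to 5.53 over the 11 alternatives that kept it, with the highest value without siCTRL replicate 3 and the call lost without siCTRL replicate 2. RUNX2 (0.03 to 0.12) was called under library size alone, and DLX5 (0.65 to 1.84) without siCTRL replicate 1 and under the replicate block (1.18, adjusted p = 0.0316). ALPL ranged from -0.27 to 0.0265 with a library left out, positive without siSFPQ replicate 1. PHEX, from -0.61 to -0.19, was called in none of the 12. Of the osteoblast genes, 1 was higher under filterByExpr, and between 1 (without siCTRL replicate 2) and 3 (without siCTRL replicate 1) with a library left out. Library size alone gave 6 higher calls among the other regulators. Muscle markers had 1 higher call under filterByExpr and 0 to 1 lower calls with a library left out, the 1 without siCTRL replicate 2. Osteoclast and blood markers had 1 higher call under DESeq2 and 1 to 2 with a library left out, the 1 without siCTRL replicate 3 or siSFPQ replicate 3. The cause of these shifts was not tested. Library size alone moved the median of all genes from 0.02 to 0.08. The replicate numbers did not pair the libraries (correlations of same-numbered deviations -0.0251, 0.0697 and 0.0355), and the replicate block gave 12954 calls against 12935. Depth limits SP7, IBSP, BGLAP and DLX5, whose libraries had 26 counts or fewer.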
